A study of Mus musculus with 12 samples.

Results

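The genes described here are 3 FoxO transcription factors, Foxo1, Foxo3 and Foxo4, and 6 genes known as their targets or as parts of the same growth-control circuit, Ccng2, Txnip, Irs2, Pik3ip1, Sesn1 and Sesn3. They were taken as every Affymetrix probe set whose only gene symbol in the platform annotation is one of these 9 names. This gave 22 of the 45037 probe sets that are not array controls, for 9 of 18193 genes. One further probe set carries the symbol of Foxo3 together with that of a second gene and was left out. A gene is represented below by the probe set that was brightest on average, and the other probe sets are given in the main comparisons. Of the 22 probe sets, 3 lay below the median of all probe sets on every array (1456529_at of Foxo1, 1450236_at of Foxo3 and 1444376_at of Sesn1). No filter on level was applied, so all 22 were tested.

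FoxO factors switch on genes for cell cycle exit, stress defence and nutrient saving when growth factor signalling is weak. Insulin and other growth factors activate PI3K and then Akt, which phosphorylates FoxO proteins. The phosphorylated proteins are held by 14-3-3 proteins and leave the nucleus. This control acts on the protein, so the level of a Foxo transcript does not measure how active the factor is. Fibroblasts such as NIH3T3, an established mouse line, stop dividing when they fill the dish.

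The arrays measured transcript levels in NIH3T3 cells infected with virus carrying Yap, Tead2-VP16, Tead2-EnR or a control vector. Yap switches on genes by binding Tead factors, which sit on DNA. Fusing Tead2 to VP16, an activating domain from a virus, makes it an activator, and fusing it to EnR, the repressing domain of Engrailed, makes it a repressor. There were 6 groups of 2 arrays. Yap cells were taken at high density, described in the labels as still proliferating and a little denser than normal confluency. Tead2-VP16 cells were taken at complete confluency and at that same high density. Control cells were taken at complete confluency. Tead2-EnR cells and the remaining control cells were taken at low density, 30% confluency. Every group carried a virus, and nothing in the labels gives a clone, a passage or the level of the introduced protein. No control group was taken at the high density, so the vector and the density cannot be told apart when Yap or Tead2-VP16 cells at high density are set against control cells.

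The deposited values were intensities between 3.77 and 25980, with array medians of 51.9 to 53.7, and were used as log2. The 2 arrays of a group correlated at r = 0.997 to 0.9982 over all probe sets. Fibroblast marker genes were above the median gene for 9 or 10 of 10 in every group, and endothelial (0 of 6) and adipocyte (0 of 5 measured) markers for none. For epithelial markers 2 of 6 were above it in every group, for macrophage markers 3 of 6 and for muscle markers 1 of 6. No label says that paired arrays came from separate cultures. The p-values therefore measure only the spread between these arrays, and the number of arrays limits every estimate. In a culture measured as a whole, fewer cells of a kind and less RNA per cell cannot be told apart.

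Confluent control cells carried more transcript of 8 of the 9 genes than low-density control cells, and of 0 genes less. Over all genes, 24.9% were called higher and 21.4% lower. The median log2 fold change was 1.38 over the 9 genes and -0.01 over all genes. The largest rises were those of Txnip, Pik3ip1 and Ccng2. Irs2 was the gene with no call. Of the 22 probe sets, 17 were called higher, against 20.2% of all probe sets. A call is a Benjamini-Hochberg adjusted p below 0.05 in limma's moderated test, fitted over all 12 arrays and adjusted over all 45037 probe sets.

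Among the factors, Foxo3 moved most. Its intensity (probe set 1434831_a_at) was 581 and 550 on the confluent control arrays, against 213 and 220 on the low-density control arrays. The groups lay far apart, and the log2 fold change was 1.38 (SE 0.061, limma adjusted p = 5.2e-08), a 2.61-fold rise. The other Foxo3 probe set of similar behaviour, 1434832_at, gave 1.09, and the dim 1450236_at gave 0.20 with no call. Foxo1 (1416983_s_at) had intensities of 443 and 419 in confluent control cells and 291 and 331 in low-density control cells. This smaller difference was a log2 fold change of 0.47 (SE 0.076, limma adjusted p = 0.00055), and 2 further Foxo1 probe sets gave 0.29 and 0.25, both called, while the dim 1456529_at gave -0.15 with no call. Foxo4 (1456753_at) read 321 and 319 in confluent control cells, against 265 and 251 in low-density control cells. Its groups did not overlap, and the log2 fold change was 0.31 (SE 0.088, limma adjusted p = 0.0172). That Foxo4 call was lost without either confluent control array (adjusted p = 0.0717 and 0.0645) or without the second low-density control array (0.0915). The second Foxo4 probe set, 1422149_at, showed 0.04 and overlapping arrays.

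Ccng2 encodes cyclin G2, an unconventional cyclin that slows the cell cycle and is a textbook FoxO target. Its intensity (1416488_at) was 1065 and 1038 in confluent control cells, against 97 and 107 in low-density control cells. That is a 10.3-fold rise, with a log2 fold change of 3.37 (SE 0.069, limma adjusted p = 7.9e-10). Txnip encodes the thioredoxin-interacting protein, which restrains thioredoxin and glucose uptake and answers to glucose-sensing factors as well as to FoxO. It read 2419 and 2404 in confluent control cells and 158 and 208 in low-density control cells (1415997_at). The rise was 13.3-fold, with a log2 fold change of 3.73 (SE 0.11, limma adjusted p = 3.5e-09). The low-density arrays differed more from each other for Txnip than for Ccng2. The second probe sets gave log2 fold changes of 2.99 for Ccng2 and 3.5 for Txnip.

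Pik3ip1 and Irs2 act on opposite sides of the PI3K step. Pik3ip1 is a membrane protein that binds the catalytic subunit of PI3K and holds it down. Its intensity (1439087_a_at) was 2187 and 2090 in confluent control cells, against 159 and 179 in low-density control cells. The rise was 12.6-fold, with a log2 fold change of 3.66 (SE 0.081, limma adjusted p = 1.1e-09), and the second probe set gave 3.76. Irs2 is the adaptor that links insulin and IGF1 receptors to PI3K, and in liver it is a well-known FoxO target. Its single probe set (1443969_at) read 200 and 217 in confluent control cells and 260 and 230 in low-density control cells. The confluent arrays were the lower ones, but the log2 fold change of -0.23 (95% interval -0.56 to 0.09, limma adjusted p = 0.253) did not pass the test.

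The sestrins are stress-induced inhibitors of mTORC1, the kinase complex that drives protein synthesis. Sesn1 answers to p53 as well as to FoxO, and Sesn3 is the sestrin most often tied to FoxO. Sesn3 (1449303_at) read 970 and 1023 in confluent control cells, against 189 and 188 in low-density control cells. This was a 5.28-fold rise, with a log2 fold change of 2.40 (SE 0.073, limma adjusted p = 4.7e-09), and its second probe set gave 1.82. Sesn1 (1433711_s_at) had intensities of 1502 and 1565 in confluent control cells and 604 and 619 in low-density control cells. The log2 fold change was 1.33 (SE 0.069, limma adjusted p = 1.6e-07), and 2 further probe sets gave 1.65 and 1.58. The dim Sesn1 probe set, at log2 levels of 4.0 to 4.42 on the control arrays, showed 0.15 and overlapping groups.

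**Figure D1:**
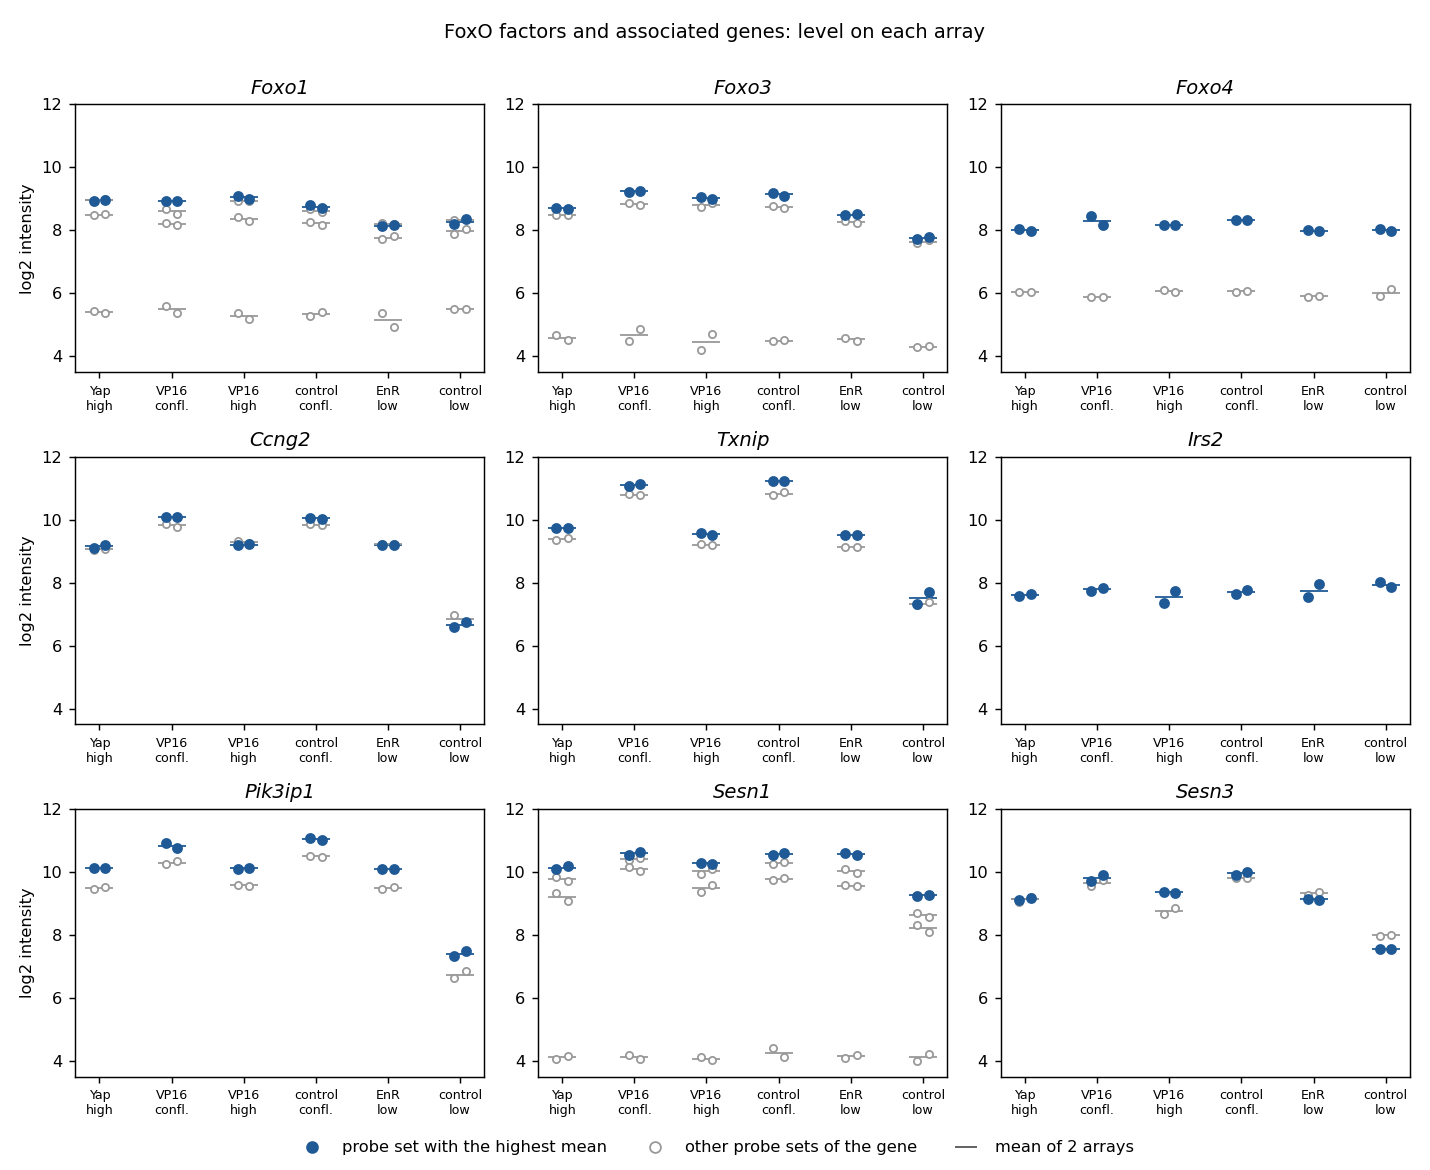
Log2 intensity of every probe set of the 9 genes on each of the 12 arrays, by group; filled points are the probe set with the highest mean, open points the gene's other probe sets, and lines the mean of 2 arrays. For Ccng2, Txnip and Pik3ip1 the low-density control arrays sit below all others, at log2 6.60 to 7.70 for the filled points.

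Some measures of the RNA moved with density as well. The poly-A spike-ins, added before labelling, had a mean log2 level of 7.40 ± 0.062 on the confluent control arrays and 7.14 ± 0.081 on the low-density control arrays (SD, n = 2 each). The 3' minus 5' log2 difference of the transferrin receptor controls was 1.30 ± 0.19 and 0.98 ± 0.052 in the same groups, and that of the actin controls 0.23 ± 0.017 and 0.08 ± 0.0066. The summed level of the fibroblast markers was log2 16.88 to 16.92 in confluent and 16.13 to 16.16 in low-density control cells. That of the epithelial markers was 10.63 to 10.67 and 11.42 to 11.55, and that of the macrophage markers 9.73 to 9.82 and 9.41 to 9.48. Members of these 2 lists did not move together. Epcam was called higher (log2 fold change 1.25) and Krt14 lower (-1.21). Lyz2 was called higher (1.23), and Cd68 (-0.66) and Cd14 (-0.69) lower. The part of these measures in the rise of the 8 genes was not tested.

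Upstream sequence is shown for Ccng2, Txnip, Pik3ip1 and Sesn3, the targets with the largest rises in confluent cells. The sequences are those of RefSeq on GRCm38.p6, which holds a promoter window of 250 bases before to 50 after the transcription start for 8 of the 9 genes, in 9 windows because Sesn1 has 2. Each line gives the 250 bases before the start in the direction of the gene. Capitals mark matches to the motifs described after the sequences.
Ccng2, chr5:93267323-93267572, plus strand: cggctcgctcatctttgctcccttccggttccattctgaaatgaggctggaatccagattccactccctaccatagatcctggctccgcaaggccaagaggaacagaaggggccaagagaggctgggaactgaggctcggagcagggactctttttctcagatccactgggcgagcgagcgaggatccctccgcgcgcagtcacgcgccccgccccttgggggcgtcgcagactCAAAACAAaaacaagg
Txnip, chr3:96557707-96557956, plus strand: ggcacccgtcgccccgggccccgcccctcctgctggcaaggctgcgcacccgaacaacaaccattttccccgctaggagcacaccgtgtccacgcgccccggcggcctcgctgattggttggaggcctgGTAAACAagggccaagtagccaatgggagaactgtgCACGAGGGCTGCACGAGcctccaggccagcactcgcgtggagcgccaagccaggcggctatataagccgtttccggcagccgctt
Pik3ip1, chr11:3330481-3330730, plus strand: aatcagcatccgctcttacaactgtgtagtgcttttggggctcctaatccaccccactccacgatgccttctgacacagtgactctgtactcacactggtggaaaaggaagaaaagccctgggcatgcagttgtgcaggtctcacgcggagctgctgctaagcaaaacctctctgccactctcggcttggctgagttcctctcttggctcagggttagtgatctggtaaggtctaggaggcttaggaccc
Sesn3, chr9:14276051-14276300, plus strand: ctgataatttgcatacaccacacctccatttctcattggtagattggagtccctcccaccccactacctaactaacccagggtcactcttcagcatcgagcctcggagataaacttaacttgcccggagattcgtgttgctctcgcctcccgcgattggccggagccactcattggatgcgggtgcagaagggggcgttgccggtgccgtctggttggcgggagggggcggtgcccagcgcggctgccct

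All 9 windows were searched on both strands for a FoxO binding element (GTAAACA), an insulin response sequence (CAAAACAA), the Tead element (GGAATG) and the paired carbohydrate response element (CACGNG, 5 bases of any kind and CACGNG again). These motifs were chosen after the sequences had been seen, and a match is a description and not a shown binding site. The Txnip window held a FoxO binding element 121 to 115 bases before the start, and a carbohydrate response element 85 to 69 bases before it. Of 32851 mouse promoter windows of the same length, 3.65% held GTAAACA and 0.0487% (16 windows) held the carbohydrate response element. The Ccng2 window held CAAAACAA 16 to 9 bases before the start, a motif found in 2.51% of windows. For Irs2, the gene with no call, the same motif lay on the opposite strand 38 to 31 bases before the start, where it reads TTGTTTTG along the gene. The first Sesn1 window held the FoxO element on the opposite strand, 22 to 28 bases after the start.
Irs2, chr8:11008949-11008978, minus strand: agagtcacgtgTTGTTTTGctcttagttca
Sesn1, chr10:41810585-41810614, plus strand: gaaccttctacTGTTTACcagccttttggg

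GGAATG, present in 14.7% of windows, occurred in the Foxo3 window alone among the 9, 180 to 175 bases before the start on the opposite strand and 20 to 25 bases after it. The windows of Foxo1, Pik3ip1 and Sesn3 and the second window of Sesn1 held none of the 4 motifs. Pik3ip1 and Sesn3, with rises of 12.6-fold and 5.28-fold, were thus without a match in these windows.

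Tead2-EnR cells at low density carried more transcript of 6 of the 9 genes than control cells at low density, and of 0 less. Over all genes, 18.4% were called higher and 16% lower in this comparison. Foxo3, Ccng2, Txnip, Pik3ip1, Sesn1 and Sesn3 rose, and Foxo1, Foxo4 and Irs2 had no call. The median log2 fold change was 1.32 over the 9 genes and -0.01 over all genes. Of the 22 probe sets, 13 were called higher, against 13.6% of all probe sets.

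Pik3ip1 stood at log2 10.11 and 10.09 in Tead2-EnR cells, against 7.32 and 7.49 in low-density control cells. The log2 fold change was 2.70 (SE 0.081, limma adjusted p = 2.6e-08), a 6.50-fold rise of this PI3K inhibitor. Ccng2 had log2 levels of 9.20 and 9.19 in Tead2-EnR cells and 6.60 and 6.74 in low-density control cells, a 5.76-fold rise (log2 fold change 2.53, SE 0.069, limma adjusted p = 1.4e-08). The 2 Tead2-EnR arrays agreed closely for both genes. Txnip was at log2 9.52 on both Tead2-EnR arrays, against 7.31 and 7.70 on the low-density control arrays, a 4.05-fold rise (log2 fold change 2.02, SE 0.11, limma adjusted p = 7.8e-07). Sesn3 was at 9.14 and 9.11 in Tead2-EnR cells and at 7.56 on both low-density control arrays (log2 fold change 1.56, SE 0.073, limma adjusted p = 3.7e-07). Sesn1 was at 10.60 and 10.55 in Tead2-EnR cells and at 9.24 and 9.27 in low-density control cells (log2 fold change 1.32, SE 0.069, limma adjusted p = 7.3e-07). No Tead2-EnR array overlapped a control array for these 5 targets. The second probe sets of Pik3ip1 (2.75), Ccng2 (2.38), Txnip (1.82) and Sesn3 (1.32) were called higher too, as were 2 further Sesn1 probe sets (1.40 and 1.35), and the dim Sesn1 probe set gave 0.02 with no call.

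The factors split in the Tead2-EnR comparison. Foxo3 was at log2 8.49 and 8.51 in Tead2-EnR cells, against 7.74 and 7.78 in low-density control cells, and rose 1.67-fold (log2 fold change 0.74, SE 0.061, limma adjusted p = 1.3e-05). Its second probe set was called at 0.62, and the dim 1450236_at gave 0.23 with no call. Foxo1 was at 8.15 and 8.16 in Tead2-EnR cells and at 8.19 and 8.37 in low-density control cells, a log2 fold change of -0.13 (95% interval -0.30 to 0.04, limma adjusted p = 0.278). The other 3 Foxo1 probe sets gave -0.12, -0.21 and -0.34 with no call, and the mean of the gene's probe sets was called lower (-0.20, adjusted p = 0.0305). Foxo4 was at 8.0 and 7.98 in Tead2-EnR cells and at 8.05 and 7.97 in low-density control cells, with overlapping arrays and a log2 fold change of -0.02 (95% interval -0.22 to 0.17), and its second probe set gave -0.11 with no call. Irs2 also overlapped, with log2 levels of 7.55 and 7.95 in Tead2-EnR cells and 8.02 and 7.85 in low-density control cells. The poly-A spike-ins were at log2 7.37 ± 0.016 in Tead2-EnR cells and 7.14 ± 0.081 in low-density control cells (SD, n = 2 each). The summed macrophage markers were at 10.98 to 11.04 and 9.41 to 9.48 in these groups. Members of that list differed: Lyz2, the macrophage lysozyme (log2 fold change 2.74), and Cd14 (0.61) were called higher, and Cd68 lower (-0.57). Csf1r had 0.07 and no call. Ptprc and Adgre1, also without a call, had mean log2 levels over all arrays of 3.36 and 4.73. The part of these measures in the rises was not tested.

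**Figure D2:**
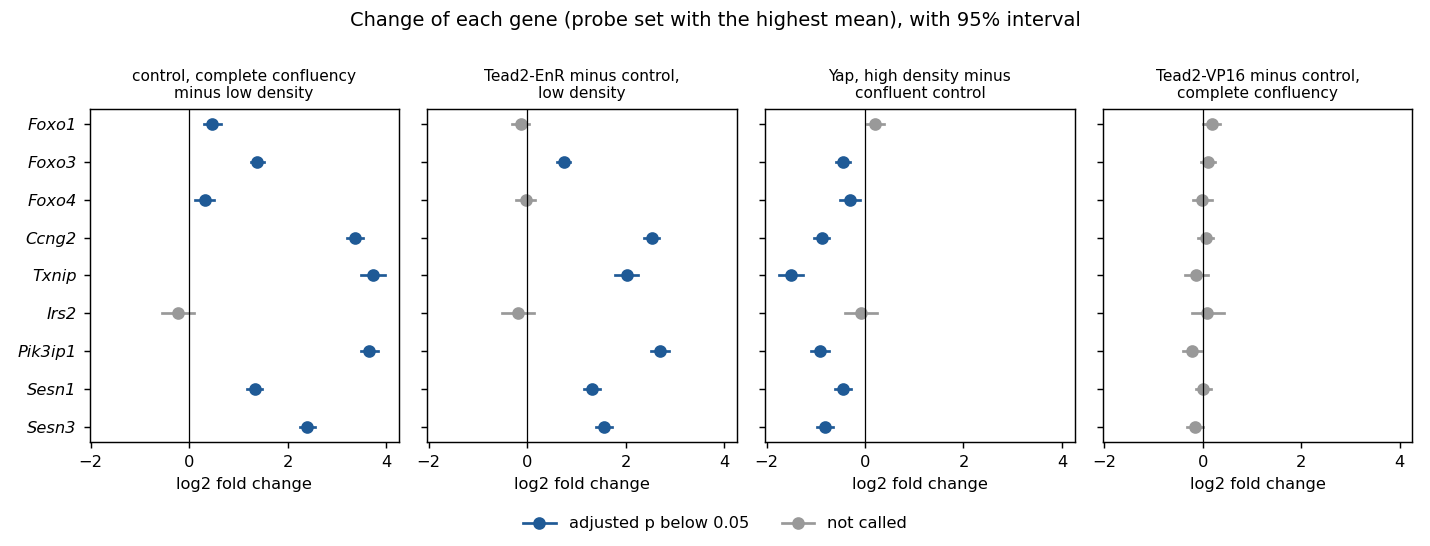
Log2 fold change of each gene's highest probe set in 4 comparisons, with the 95% interval of the limma fit; blue points have an adjusted p below 0.05. Seen across the panels, Ccng2, Txnip, Pik3ip1, Sesn1, Sesn3 and Foxo3 lie to the right of 0 with density (1.33 to 3.73) and with Tead2-EnR (0.74 to 2.70), to the left for Yap, and near 0 for Tead2-VP16 at complete confluency. The panels share control arrays and are not independent. Density and Tead2-EnR use the same low-density arrays, and density, Yap and Tead2-VP16 the same confluent arrays.

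In Yap cells at high density, 7 of the 9 genes were lower than in confluent control cells and 0 were higher. Over all genes, 12.4% were called lower and 9.61% higher. The genes that fell were Foxo3, Foxo4 and all 5 of the targets Ccng2, Txnip, Pik3ip1, Sesn1 and Sesn3. Of the 22 probe sets, 14 were called lower, against 9.13% of all probe sets. The median log2 fold change was -0.45 over the 9 genes. Fibroblast markers moved in this comparison as well, with 6 of 10 called lower and a summed log2 level of 16.61 to 16.64 in Yap cells and 16.88 to 16.92 in confluent control cells. The summed epithelial markers were at 10.90 to 10.92 in Yap cells and 10.63 to 10.67 in confluent control cells, and the macrophage markers at 9.55 to 9.56 and 9.73 to 9.82 in the same groups. Single markers went both ways. Krt14 was called higher (log2 fold change 0.46) and Epcam lower (-0.54). Cd68 (0.28) and Cd14 (0.42) were called higher and Lyz2 lower (-0.63). The poly-A spike-ins were at log2 7.30 ± 0.078 in Yap cells and 7.40 ± 0.062 in confluent control cells, and the actin controls had a 3' minus 5' difference of 0.12 ± 0.008 and 0.23 ± 0.017 (SD, n = 2 each). Their part in the falls was not tested.

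Txnip fell furthest. It was at log2 9.73 and 9.75 in Yap cells, against 11.24 and 11.23 in confluent control cells (log2 fold change -1.5, SE 0.11, limma adjusted p = 1.7e-05). Pik3ip1 was at 10.13 and 10.14 in Yap cells and at 11.09 and 11.03 in confluent control cells (log2 fold change -0.92, SE 0.081, limma adjusted p = 5.6e-05). For both genes the Yap arrays lay well below the confluent control arrays. Ccng2 was at 9.11 and 9.20 in Yap cells, against 10.06 and 10.02 in confluent control cells, a log2 fold change of -0.88. Sesn3 was at 9.12 and 9.17 in Yap cells, against 9.92 and 10.0 in confluent control cells, a log2 fold change of -0.81. Sesn1 was at 10.08 and 10.19 in Yap cells, against 10.55 and 10.61 in confluent control cells, a log2 fold change of -0.44. All 3 fell, with limma adjusted p of 2.9e-05, 6.7e-05 and 0.00167. The second probe sets of Txnip (-1.43), Pik3ip1 (-1.0), Ccng2 (-0.78) and Sesn3 (-0.68) were called lower, as were 2 further Sesn1 probe sets (-0.52 and -0.59), and the dim Sesn1 probe set gave -0.15 with no call.

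Among the factors, Foxo3 and Foxo4 fell in Yap cells. Foxo3 was at log2 8.72 and 8.68 in Yap cells and at 9.18 and 9.10 in confluent control cells, with no overlap (log2 fold change -0.45, SE 0.061, limma adjusted p = 0.00082). The other Foxo3 probe sets gave -0.25 (limma adjusted p = 0.0343) and, for the dim 1450236_at, 0.09 with no call. With the gene's probe sets averaged, the Foxo3 call was lost (-0.20, adjusted p = 0.0635). Foxo1 was at 8.94 and 8.98 in Yap cells and at 8.79 and 8.71 in confluent control cells, so its Yap arrays were the higher ones. Its highest probe set missed the call (log2 fold change 0.21, limma adjusted p = 0.0964), while 1416982_at (0.34, limma adjusted p = 0.00913) and 1416981_at (0.28, limma adjusted p = 0.0379) were called higher and the dim 1456529_at gave 0.05. The highest Foxo1 probe set was called under 3 alternatives, the filter on level (adjusted p = 0.0306), log2(intensity + 32) (0.034) and the variance trend (0.0279), and the mean of the gene's probe sets was called too (0.0288). Foxo4 was at 8.05 and 7.97 in Yap cells and at 8.33 and 8.32 in confluent control cells, with a log2 fold change of -0.31 (limma adjusted p = 0.0368). Its second probe set, 1422149_at, gave -0.03 (limma adjusted p = 0.873). The call was lost when the probe sets were averaged (-0.17, adjusted p = 0.07) and under repeated quantile normalization (-0.29, 0.054). The Foxo4 call was lost without either Yap array (adjusted p = 0.0906 and 0.186), either confluent control array (0.141 and 0.125), either Tead2-VP16 array at high density (0.0542 each) or either Tead2-EnR array (0.0527 each). Irs2, at 7.59 and 7.64 in Yap cells and 7.64 and 7.76 in confluent control cells, had no call (95% interval -0.41 to 0.25).

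Tead2-VP16 cells at high density were lower than confluent control cells for 5 of the 9 genes and higher for 1. Over all genes, 11.9% were called lower and 11.4% higher. The confluent control arrays are the same as in the Yap comparison, so the values of the 2 comparisons are not independent. Fibroblast markers were called lower for 7 of 10, with a summed log2 level of 16.62 on both Tead2-VP16 arrays and 16.88 to 16.92 in confluent control cells. The poly-A spike-ins were at log2 7.21 ± 0.03 in Tead2-VP16 cells and 7.40 ± 0.062 in confluent control cells (SD, n = 2 each). In the same groups the summed epithelial markers were at 10.51 to 10.52 and 10.63 to 10.67, and the macrophage markers at 9.48 to 9.53 and 9.73 to 9.82. Single markers went both ways here too. Cdh1 (log2 fold change 0.77) and Cd14 (0.37) were called higher, and Epcam (-0.52) and Lyz2 (-0.77) lower. The part of these measures in the differences was not tested. Txnip was at log2 9.57 and 9.50 in these Tead2-VP16 cells, against 11.24 and 11.23 in confluent control cells, and fell (log2 fold change -1.70, SE 0.11, limma adjusted p = 7.1e-06). Pik3ip1 was at 10.10 and 10.14 in Tead2-VP16 cells and 11.09 and 11.03 in confluent control cells (log2 fold change -0.94, limma adjusted p = 4.3e-05). Both repeated a wide gap to the confluent control arrays. Ccng2 was at 9.19 and 9.23 in Tead2-VP16 cells, against 10.06 and 10.02 in confluent control cells (log2 fold change -0.83, limma adjusted p = 3.6e-05). The second probe sets of Txnip (-1.62), Pik3ip1 (-0.92) and Ccng2 (-0.56) were called lower.

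Both sestrins fell as well. Sesn3 was at log2 9.36 and 9.33 in Tead2-VP16 cells at high density, against 9.92 and 10.0 in confluent control cells (log2 fold change -0.61, limma adjusted p = 0.00032). Its second probe set, 1453313_at, gave -1.06. Sesn1 was at 10.27 and 10.26 in Tead2-VP16 cells, against 10.55 and 10.61 in confluent control cells (log2 fold change -0.32, limma adjusted p = 0.00978). The Sesn1 call was lost without the first Tead2-VP16 array (adjusted p = 0.051) or the second confluent control array (0.0687), and 2 other Sesn1 probe sets were not called (-0.27 and -0.29). Foxo1 was the gene called higher, at 9.10 and 9.0 in Tead2-VP16 cells and 8.79 and 8.71 in confluent control cells (log2 fold change 0.30, limma adjusted p = 0.0203). That call was lost without the first Tead2-VP16 array (adjusted p = 0.137), the first confluent control array (0.0516) or the second (0.124), with the probe sets averaged (0.17, adjusted p = 0.0725) and with only the arrays compared (0.0604). The other Foxo1 probe sets gave 0.32 (called), 0.14 and -0.06. Foxo3, Foxo4 and Irs2 had log2 fold changes of -0.12, -0.16 and -0.17 and no call, and the second probe sets of Foxo3 and Foxo4 gave 0.06 and 0.02.

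Set against low-density control cells, Yap cells at high density were higher for 7 of the 9 genes, against 20.7% of all genes, and Tead2-VP16 cells at high density were also higher for 7, against 21.9%. In both comparisons the 7 were Foxo1, Foxo3, Ccng2, Txnip, Pik3ip1, Sesn1 and Sesn3. Pik3ip1 had a log2 fold change of 2.74 in Yap cells and 2.72 in Tead2-VP16 cells, both against low-density control cells. Ccng2 had 2.48 in Yap cells and 2.54 in Tead2-VP16 cells, and Txnip 2.24 and 2.03. Foxo1 had 0.68 in Yap cells and 0.77 in Tead2-VP16 cells, beside 0.47 in confluent control cells over the same low-density arrays. Foxo4 had 0.00 in Yap cells (95% interval -0.20 to 0.20) and 0.15 in Tead2-VP16 cells, with no call. Irs2 had -0.32 and -0.41, with limma adjusted p of 0.137 and 0.0602; the second fell below 0.05 without the second Tead2-VP16 array at high density (0.0178) or without either Tead2-EnR array (0.0301 each). It also did so under 6 other alternatives (adjusted p = 0.0261 to 0.0469).

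Yap and Tead2-VP16 cells at the same high density differed for 1 of the 9 genes, against 1.58% of all genes called in either direction. Foxo3 was at log2 8.72 and 8.68 in Yap cells, against 9.06 and 9.0 in Tead2-VP16 cells, a log2 fold change of -0.33 (SE 0.061, limma adjusted p = 0.0294). The arrays did not overlap, but the call was lost when any of the 4 arrays was left out (adjusted p = 0.147 and 0.189 without a Yap array, 0.202 and 0.0704 without a Tead2-VP16 array), with the probe sets averaged (-0.17, adjusted p = 0.302) and with only the arrays compared (0.153). The second Foxo3 probe set gave -0.31 (limma adjusted p = 0.0651). For Pik3ip1 the difference was 0.02 (95% interval -0.16 to 0.20), for Ccng2 -0.05 (-0.21 to 0.10), for Txnip 0.20 (-0.04 to 0.44) and for Sesn1 -0.13 (-0.28 to 0.03). The Sesn3 probe sets disagreed in sign. Probe set 1449303_at was at 9.12 and 9.17 in Yap cells and 9.36 and 9.33 in Tead2-VP16 cells (-0.20), whereas 1453313_at was at 9.05 and 9.22 in Yap cells and 8.65 and 8.86 in Tead2-VP16 cells (0.38, limma adjusted p = 0.0931). Neither was called.

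At complete confluency, Tead2-VP16 cells differed from control cells for 0 of the 9 genes and 0 of the 22 probe sets at an adjusted p below 0.05. Over all genes, 3.35% were called higher and 3.14% lower, a split of 52.6% higher among called probe sets that became 68.8% when arrays were centred on their medians. Ccng2 was at log2 10.09 and 10.10 in confluent Tead2-VP16 cells, against 10.06 and 10.02 in confluent control cells (log2 fold change 0.06, 95% interval -0.10 to 0.21). Txnip was at 11.08 and 11.13 in Tead2-VP16 cells and 11.24 and 11.23 in control cells (-0.13, 95% interval -0.37 to 0.11). Sesn1 was at 10.54 and 10.65 in Tead2-VP16 cells and 10.55 and 10.61 in control cells, and its arrays overlapped. Pik3ip1 was at 10.93 and 10.76 in Tead2-VP16 cells and 11.09 and 11.03 in control cells. Its log2 fold change of -0.22 had a 95% interval of -0.40 to -0.04 before adjustment and a limma adjusted p of 0.171, and it was called when the variance was fitted with a trend and a robust prior (0.028). Foxo1 had 0.18 (0.01 to 0.35) and Sesn3 -0.16 (-0.32 to 0.00), neither called, and the remaining genes had intervals that spanned 0.

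Within Tead2-VP16 cells, complete confluency was higher than high density for 6 of the 9 genes and lower for 0. Over all genes, 10.2% were called higher and 10% lower. Txnip was at log2 11.08 and 11.13 in confluent Tead2-VP16 cells, against 9.57 and 9.50 in Tead2-VP16 cells at high density, and rose most (log2 fold change 1.57, SE 0.11, limma adjusted p = 2.3e-05). Ccng2 rose by 0.89 (limma adjusted p = 5e-05), Pik3ip1 by 0.73 (0.00037) and Sesn3 by 0.45 (0.00267). The second Sesn3 probe set, 1453313_at, rose more, with mean log2 levels of 9.65 at complete confluency and 8.75 at high density. Sesn1 rose by 0.33 (limma adjusted p = 0.0101), a call lost without the first high-density array (0.0561) or the second confluent array (0.0727), and with only the arrays compared (0.0577). Foxo3 rose by 0.22 (limma adjusted p = 0.0392). The Foxo3 call was lost without either high-density Tead2-VP16 array (0.0948 and 0.167), either confluent Tead2-VP16 array (0.105 and 0.143), either Yap array (0.0597 each) or either Tead2-EnR array (0.0572 each). It was also lost with the probe sets averaged (0.16, adjusted p = 0.127), under repeated quantile normalization (0.0592), with a replicate block (0.0538) and with only the arrays compared (0.138), and the second Foxo3 probe set showed 0.04. Foxo1 did not share the direction, with -0.12 in its highest probe set and a called fall of -0.33 in 1416982_at (limma adjusted p = 0.0125). Foxo4 had 0.15 and no call, and passed without the second confluent Tead2-VP16 array (0.29, adjusted p = 0.0495).

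The density step in Tead2-VP16 cells was smaller than the density step in control cells for 7 of the 9 genes, tested as a difference of the steps; 18.7% of all genes had a called difference in that direction. The starting densities differ, since Tead2-VP16 cells were compared from high density and control cells from 30% confluency, so construct and starting density cannot be told apart here. Pik3ip1 showed a step of 0.73 in Tead2-VP16 cells and 3.66 in control cells (difference -2.93, limma adjusted p = 1.7e-07). Ccng2 showed 0.89 and 3.37 in the same cells (difference -2.48, limma adjusted p = 1.8e-07). Txnip kept the largest step in Tead2-VP16 cells, 1.57 against 3.73 in control cells (difference -2.17, limma adjusted p = 4.5e-06). Sesn3 (-1.95), Foxo3 (-1.17), Sesn1 (-1.0) and Foxo1 (-0.59) were the other genes with a called difference. The second Sesn3 probe set gave a smaller difference. Its control step was 1.82, and its mean log2 levels in Tead2-VP16 cells were 9.65 at complete confluency and 8.75 at high density. Foxo4 had -0.16 and no call; Irs2 had 0.50 (limma adjusted p = 0.113), which passed without the second Tead2-VP16 array at high density (0.69, adjusted p = 0.0345).

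The targets did not all hold the same place between the control densities. For the 6 genes whose control step was at least 1 on the log2 scale, each group was placed as a percentage of that step, with the low-density control mean at 0% and the confluent control mean at 100%. Ccng2 and Pik3ip1 gave nearly equal places in Yap cells (73.8% and 74.7%), Tead2-VP16 cells at high density (75.3% and 74.2%) and Tead2-EnR cells (75.0% and 73.8%). Txnip sat lower in all 3, at 59.9% in Yap cells, 54.5% in Tead2-VP16 cells at high density and 54.0% in Tead2-EnR cells. Its second probe set gave 59.1%, 53.8% and 51.9% in that order of groups. No array of these 3 groups put Txnip above 60.3%, and none put Ccng2 or Pik3ip1 below 72.4%.

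Foxo3 separated the 3 groups in both probe sets placed, and Sesn1 did so by its highest probe set alone. The second probe sets of Ccng2, Txnip and Sesn3 also had no overlap between these groups, but the highest probe sets of those genes did. Foxo3 was at 67.7% in Yap cells, 91.6% in Tead2-VP16 cells at high density and 53.7% in Tead2-EnR cells, and its second probe set ordered them alike (76.9%, 105.5% and 56.8%). Sesn1 was at 66.5% in Yap cells, 76.1% in Tead2-VP16 cells at high density and 99.3% in Tead2-EnR cells, with no overlap of arrays. In 2 other Sesn1 probe sets the arrays of Tead2-VP16 cells at high density and Tead2-EnR cells overlapped, with means of 83.9% and 85.2% in 1454699_at and 81.3% and 85.8% in 1438931_s_at. Yap cells were lowest in these as well, at 68.6% and 62.8%. Sesn3 was at 66.1% in Yap cells, 74.5% in Tead2-VP16 cells at high density and 65.2% in Tead2-EnR cells, but its second probe set put Tead2-VP16 cells at 41.5%. Tead2-VP16 cells at complete confluency lay at 93.4% to 107.2% for all 6 genes by the highest probe sets. These places are descriptions and were not tested as percentages.

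**Figure D3:**
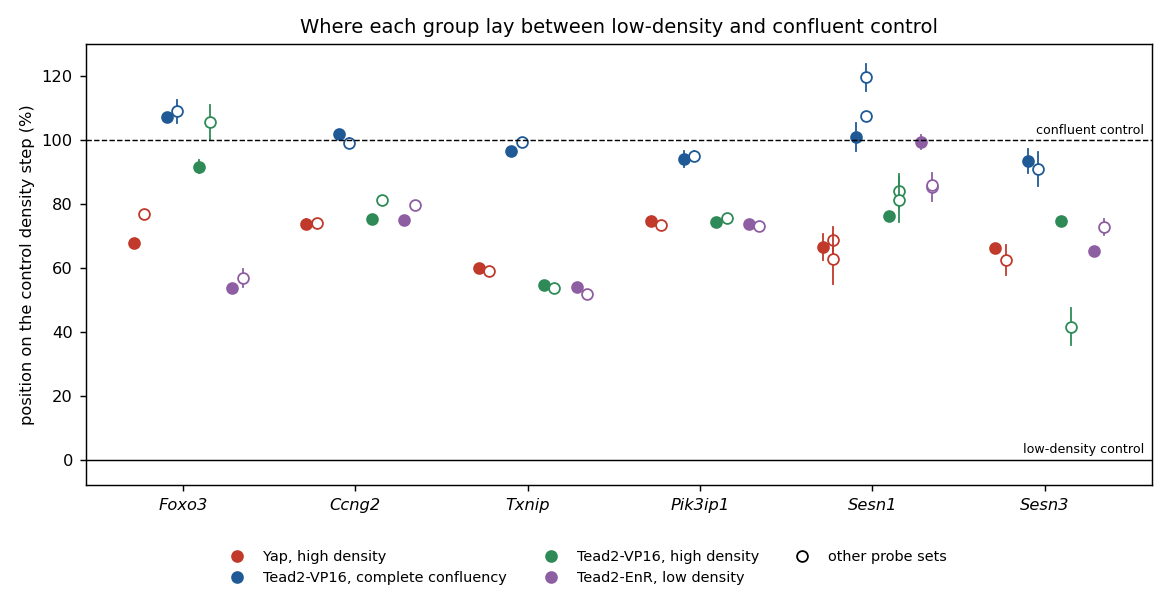
Place of each group on the control density step, in percent, for the 6 genes with a step of at least 1 log2 unit; points are means, vertical lines join the 2 arrays, and open points are other probe sets. Txnip points for Yap, Tead2-VP16 at high density and Tead2-EnR lie between 51.9% and 59.9%, below those of Ccng2 and Pik3ip1 at 73.2% to 81.3%.

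Ordered by the level of the highest probe sets, Ccng2, Txnip, Pik3ip1 and Sesn3 shared a 3-tier pattern. Confluent Tead2-VP16 and confluent control cells were at the top, with no call between them. Yap, Tead2-VP16 at high density and Tead2-EnR cells formed the middle, with no call between Yap and Tead2-VP16 cells; Tead2-EnR cells were not tested against either. Low-density control cells were at the bottom. The second Sesn3 probe set, 1453313_at, spread the middle, with mean log2 levels of 8.75 in Tead2-VP16 cells at high density, 9.13 in Yap cells and 9.32 in Tead2-EnR cells. For Foxo3 the order was Tead2-VP16 at complete confluency, confluent control, Tead2-VP16 at high density, Yap, Tead2-EnR and low-density control, with no call between the first 2, nor between confluent control and Tead2-VP16 at high density. Sesn1 had Tead2-EnR cells (10.60 and 10.55) among the confluent groups (10.54 to 10.65), above Tead2-VP16 at high density and Yap. Foxo1 had its highest arrays in Tead2-VP16 cells at high density (9.10 and 9.0) and its lowest in Tead2-EnR cells (8.15 and 8.16). Foxo4 arrays ranged from 7.97 to 8.45, and the confluent Tead2-VP16 arrays (8.45 and 8.17) lay on both sides of the confluent control arrays. Irs2 arrays ranged from 7.34 to 8.02, and the 2 Tead2-VP16 arrays at high density (7.34 and 7.72) bracketed both Yap arrays.

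The genes with the most similar pattern were picked by Pearson's r of log2 levels over the 12 arrays, among 8891 named genes above the median gene and without the 9 genes themselves. The arrays come in 6 pairs that are alike within a pair, so a high r can rest on 6 levels and no p is given. Ccng2 was closest to Kctd2 (r = 0.998), Fbxo25 (0.996) and Fam13c (0.996). Pik3ip1 was closest to Tcta, Laptm4a and Sulf2 (0.996 each), and Sesn3 to Dnajc4 (0.997), Cnpy2 (0.997) and Fbh1 (0.996). Txnip was closest to Zbtb4 (0.996), Phkb (0.993) and Atp7a (0.992), and Sesn1 to Commd3 (0.993), Zfp703 (0.989) and Srgap3 (0.989). Among the factors, Foxo3 was closest to Ctdsp2 (0.992), Tnrc6c (0.991) and Fndc3b (0.990), Foxo1 to Etnk1 (0.989), Syn1 (0.980) and Stat6 (0.977), and Foxo4 to Pgap2 (0.953), Brd1 (0.951) and Mark4 (0.932). Irs2 reached only 0.845 with Mtfr1, 0.824 with Larp4b and 0.821 with Zcchc3.

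The rest of the pathway was followed through 96 measured genes in 9 lists, of 102 listed. The lists were chosen with earlier results of these data known, so their counts beside the shares of all genes are descriptions. In confluent against low-density control cells, 45 were called higher (24.9% of all genes) and 23 lower (21.4% of all genes), with a median log2 fold change of 0.17. In Tead2-EnR against control cells at low density, 36 were higher and 16 lower (median 0.09), against 18.4% and 16% of all genes. In Yap cells at high density against confluent control cells, 10 were higher and 29 lower (median -0.04), against 9.61% and 12.4% of all genes. In Tead2-VP16 against control cells at complete confluency, 11 were higher and 6 lower (median 0.02), against 3.35% and 3.14% of all genes. The lower counts with density and in Tead2-EnR cells, and the higher count in Yap cells, lay near the shares of all genes. With density 70.8% of the 96 genes were called in either direction. Among probe sets above the median level, tested alone, 68.8% were called. Genes named below outside the 4 smallest adjusted p of a comparison were chosen after their values were seen, and not every gene among those 4 is named.

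Insulin and PI3K signalling genes, upstream of FoxO, were called higher for 12 of 21 in confluent against low-density control cells and lower for 3, against 24.9% and 21.4% of all genes. Pik3r3, a regulatory subunit of PI3K, was at log2 10.45 and 10.33 in confluent control cells and 7.85 and 7.76 in low-density control cells (log2 fold change 2.59, limma adjusted p = 2.1e-09). In confluent Tead2-VP16 against confluent control cells Pik3r3 was lower (-0.96, limma adjusted p = 8e-05), the smallest adjusted p of the pathway genes there. Pik3r2 was lower than in confluent control cells in Yap cells (-1.02) and in Tead2-VP16 cells at high density (-0.90). The insulin receptor Insr was at 7.87 and 7.80 in confluent control cells, against 6.56 and 6.54 in low-density control cells (1.29). The adaptor Irs1 rose by 1.01 in the same comparison, in which its relative Irs2 had no call. Sgk1, a kinase that phosphorylates FoxO as Akt does, fell by 1.56 in confluent control cells. In Yap cells at high density Sgk1 was at 11.22 and 11.17, against 10.10 and 10.13 in confluent control cells, and was higher (log2 fold change 1.08, limma adjusted p = 4.2e-06). Tead2-VP16 cells at high density were also higher than confluent control cells for Sgk1 (0.93). Against low-density control cells Sgk1 was called lower in Yap cells (-0.48) and in Tead2-VP16 cells at high density (-0.63). Vector and density cannot be told apart in these comparisons. Akt1 and Akt2 showed -0.25 (called) and 0.16 (not called) with density in control cells.

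The autophagy and atrophy targets were called higher for 9 of 10 genes with density in control cells (median 0.72) and for 9 of 10 in Tead2-EnR cells (median 0.50), with 0 lower in either; of all genes, 24.9% were higher with density and 18.4% in Tead2-EnR cells. Ulk2, an autophagy kinase, was at log2 9.71 and 9.54 in confluent control cells, against 7.53 and 7.46 in low-density control cells (log2 fold change 2.13, limma adjusted p = 1.4e-08). Fbxo32 (atrogin-1), a ubiquitin ligase of muscle wasting, was at 8.24 and 8.37 in Tead2-EnR cells, against 6.54 and 6.72 in low-density control cells (1.68). The gene without a call with density was Trim63 (0.17), and that without one in Tead2-EnR cells was Becn1 (-0.05). Trim63 was called in Tead2-EnR cells (1.03) at a mean log2 level over all arrays of 3.46, near the low end of the array.

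With density in control cells 6 of 11 arrest targets were higher and 3 lower, against 24.9% and 21.4% of all genes. In Tead2-EnR cells 6 were higher and 2 lower, against 18.4% and 16% of all genes, so the lower counts lay near the shares of all genes. Trp53inp1, a stress-induced arrest gene, was at log2 10.92 and 10.89 in Tead2-EnR cells, against 8.65 and 8.61 in low-density control cells (log2 fold change 2.27, limma adjusted p = 1.8e-08), and it rose by 1.90 with density in control cells. The CDK inhibitor Cdkn1b (p27) rose by 1.23 with density in control cells and by 0.55 in Tead2-EnR cells. Cdkn1a (p21) was called in opposite directions, with 0.90 in Tead2-EnR cells and -0.40 with density in control cells. Gadd45a, a stress sensor, was at 9.53 and 9.55 in confluent Tead2-VP16 cells, against 8.65 and 8.63 in confluent control cells (0.90, limma adjusted p = 0.00027). Cited2 was called higher there as well (0.54). Klf2 and Gadd45b were higher in Yap than in Tead2-VP16 cells at high density (0.49 and 0.45, limma adjusted p = 0.0157 and 0.0486). These were the only 2 of the 96 pathway genes called there, with 0 lower. Their share of 2.1% was near the 1.58% of all genes called in either direction.

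Other target groups were smaller, and the shares of all genes given above apply to their counts. Death targets were higher for 3 of 5 with density in control cells and for 3 of 5 in Tead2-EnR cells; Bcl2l11 (Bim), which starts apoptosis, had 2.12 and 1.68. Stress defence targets were higher for 4 of 8 and lower for 2 with density in control cells. Among them Selenop, a secreted selenium carrier, was at log2 12.41 and 12.49 in confluent control cells, against 9.90 and 9.81 in low-density control cells (log2 fold change 2.60, limma adjusted p = 1.9e-09), while Sod2 (-0.45) and Prdx3 (-0.51), mitochondrial antioxidant enzymes, fell. Metabolic targets were higher for 3 of 7 in both comparisons. Pdk4, which closes off pyruvate oxidation, was at 7.98 and 7.89 in Tead2-EnR cells, against 5.75 and 5.77 in low-density control cells (2.18, limma adjusted p = 6.2e-08). Of the 4 genes that FoxO factors are known to repress, Ccnd1 (-0.92), Myc (-1.06) and Pim1 (-1.33) fell with density in control cells and Ccnd2 rose (0.67). In confluent Tead2-VP16 against confluent control cells Pim1 (0.73) and Myc (0.44) were called higher, and Ccnd1 and Ccnd2 had no call.

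FoxO partners and regulators were lower for 9 of 20 and higher for 3 with density in control cells, against 21.4% and 24.9% of all genes. Foxm1, a forkhead factor of dividing cells that opposes FoxO, was at log2 7.38 and 7.37 in Yap cells at high density, against 10.03 and 9.92 in low-density control cells (log2 fold change -2.60, limma adjusted p = 4.9e-08). Against the same low-density arrays Foxm1 had -2.72 in confluent control cells and -2.72 in Tead2-VP16 cells at high density. Yap cells against confluent control cells had 0.12 and no call for Foxm1. Of the 14-3-3 genes, Ywhae (-0.37) and Ywhah (-0.40) fell with density in control cells. Ywhaz (-0.10), Ywhab (-0.02), Ywhag (-0.03) and Ywhaq (-0.10) had no call in that comparison. The exporter Xpo1 fell by 1.25 with density in control cells. Of 12 relatives of the 9 genes, 5 were higher and 3 lower with density in control cells, against 24.9% and 21.4% of all genes, so the lower count was near the share of all genes. Ccng1, the sister of Ccng2, fell by 1.20 with density in control cells, Sesn2 had -0.10 and no call, and Arrdc3, an alpha-arrestin like Txnip, rose by 2.27.

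Proliferation genes fell with density. In confluent against low-density control cells 11 of 11 were lower (median log2 fold change -2.28; 21.4% of all genes were lower), and in Tead2-EnR against control cells at low density 10 of 11 were lower (median -0.59; 16% of all genes). In Yap and Tead2-VP16 cells at high density, which the labels call proliferating, 11 of 11 were lower than in low-density control cells (medians -2.41 and -2.52), against 18.6% and 18.1% of all genes. Against confluent control cells, 6 of 11 were higher and 2 lower in Yap cells (median 0.33), and 4 were higher and 3 lower in Tead2-VP16 cells at high density (median 0.16). Of all genes, 9.61% were higher and 12.4% lower in Yap cells, and 11.4% and 11.9% in Tead2-VP16 cells. In confluent Tead2-VP16 cells 6 of 11 were lower than in confluent control cells (median -0.30; 3.14% of all genes), the comparison in which 0 of the 9 genes was called.

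**Figure D4:**
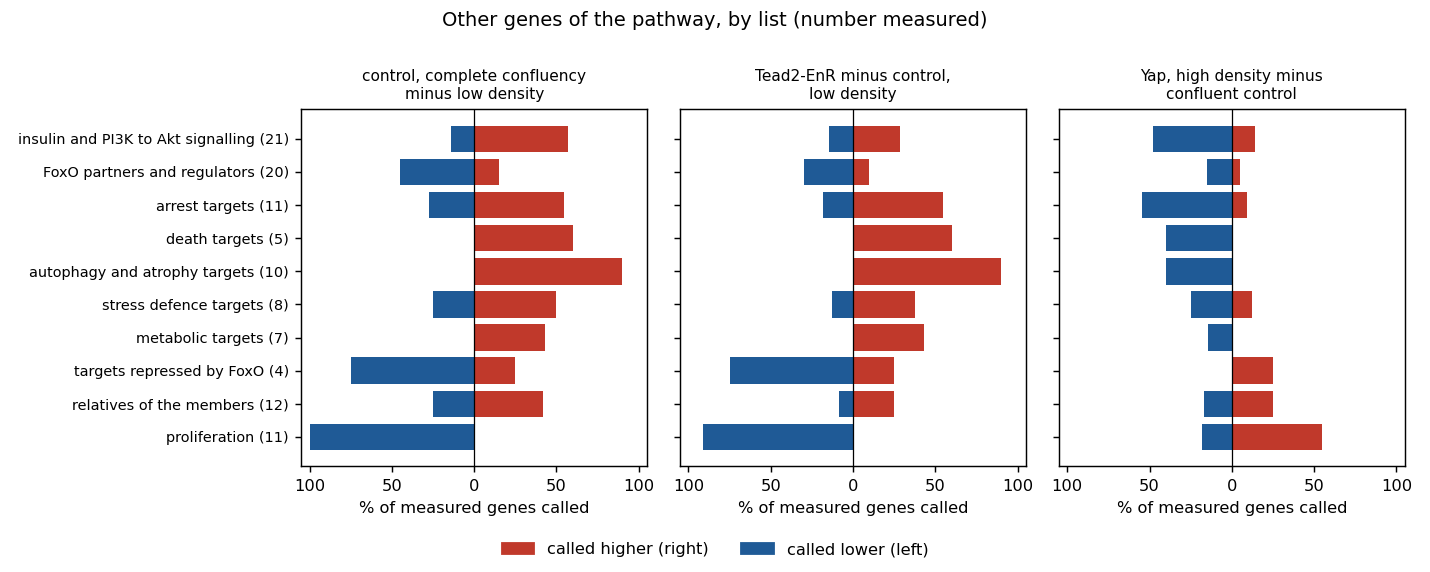
Percentage of each list's measured genes called higher (right) or lower (left) in 3 comparisons, with the number measured in brackets. The autophagy and atrophy list reaches 90% higher with density in control cells and in Tead2-EnR cells, and the proliferation list 100% lower with density.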

How the data were processed

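Transcript levels were measured on 12 Affymetrix arrays of NIH3T3 cells in 6 groups of 2. The authors deposited intensities per probe set, summarised by RMA per the submitters' processing notes, with no version given; the file itself states no scale. RMA gives log2 values, but the deposited intensities ran from 3.77 to 25980, so they were taken as linear and log2 was taken before any test. RMA equalises the distribution of intensities between arrays, so a shift shared by all transcripts cannot be seen. No detection calls were available.

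Gene symbols came from the platform annotation: 34945 of 45101 probe sets had 1 symbol and 932 had several. The Entrez identifiers of 34741 matched a gene table (GRCm38.p6), which changed 0 symbols. All 12 arrays were fitted with 1 mean per group by limma 3.58.1 in R 4.3.3 (6 residual and 3.69 prior degrees of freedom), two-sided, without a replicate block, over the 45037 probe sets that are not among the 64 controls. Adjusted p are Benjamini-Hochberg over all of these within each of 10 comparisons. A log2 fold change is the first-named group minus the second. A list's genes enter by their highest-mean probe set; 9010 genes had more than 1. The fit was tested on simulated data with 200 changed probe sets.

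The genes, lists and motifs were chosen with earlier results of these data known. Named were all 9 genes with every probe set, and for each of the 9 genes the 3 others with the highest r over the arrays, leaving out unnamed clones. Pathway genes were drawn per comparison from up to 4 called genes with the smallest adjusted p. Not all of these are named in each comparison, and other pathway genes were chosen after their values were seen. The lists held insulin and PI3K signalling, FoxO partners and regulators, arrest, death, autophagy and atrophy, stress defence and metabolic targets, targets repressed by FoxO, relatives of the 9 genes, proliferation, and markers of fibroblasts, epithelium, macrophages, endothelium, adipocytes and muscle. Replicate numbers were checked as a pairing: over 15 pairs of groups the correlation of same-numbered deviations ran from -0.0757 to 0.101, with 1 above 0.1, so they were not treated as pairs. Alternatives were 1 probe set per gene, probe sets of a gene averaged, a filter on level, log2(intensity + 32), a replicate block, a trended variance with robust prior, repeated quantile normalization, median centring, only the arrays compared, a 2-fold change with no test, and each array left out. Figures were drawn with matplotlib 3.10.9.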

Additional observations from a re-analysis of the deposited data

Results flagged for a closer look

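For 7 of the 9 genes the density step in Tead2-VP16 cells (complete confluency minus high density) differed from the density step in control cells (complete confluency minus low density) by a test of the difference itself. On the log2 scale the difference was -2.93 for Pik3ip1, -2.48 for Ccng2, -2.17 for Txnip, -1.95 for Sesn3, -1.17 for Foxo3, -1.0 for Sesn1 and -0.59 for Foxo1, with limma adjusted p between 1.7e-07 and 0.00214. These values are those of the highest probe sets, and the second Sesn3 probe set gave a smaller difference. Among all genes, 18.7% had a called difference in the direction of these 7 genes. The steps start from different densities, so the construct and the starting density cannot be told apart. No group of 4 or more arrays existed in which a single array could be set against the others.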

How the results depend on the processing

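Of 900 log2 fold changes of single genes recomputed under 10 alternatives, 841 kept their direction and their side of the threshold, and with single arrays left out 1036 of 1080 did. With replicate number as a block the counts of called genes stayed within 1.5 times. Irs2 in Tead2-VP16 cells at high density against low-density control then gained a call (-0.41, adjusted p = 0.0411), and Foxo3 with density in Tead2-VP16 cells lost it (0.22, 0.0538); the block changed no other call of the 9 genes. The cause of the changes was not tested. The number of called genes became 1 for Tead2-VP16 at complete confluency under the variance trend. Under a 2-fold change with no test it was 1 for Yap and 1 for Tead2-VP16 at high density against confluent control, 4 for Yap against low-density control, 1 for density in Tead2-VP16 and 0 for Yap against Tead2-VP16. That last count was also 0 with probe sets averaged, with only those arrays, and without any of the 4 arrays (0 to 1 over all arrays left out).

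The percentage of all probe sets called depended on which were tested. Among those above the median level it was 68.8 for density in control, 55.1 for Tead2-EnR, 18.8 for Tead2-VP16 at complete confluency, 41.0 for Yap and 42.6 for Tead2-VP16 at high density against confluent control, and 62.2 for each of these against low-density control. It was 6.77 for Yap against Tead2-VP16, 39.7 for density in Tead2-VP16 and 55.0 for the difference of steps. With a 2-fold change and no test the same 10 comparisons gave 8.52, 2.58, 0.187, 0.868, 1.08, 5.03, 5.34, 0.16, 0.548 and 6.16. For Tead2-VP16 at complete confluency it was 9.98 with 1 probe set per gene, 8.74 with probe sets averaged, 9.82 with an offset of 32, 10.0 with the variance trend, 1.94 with only those arrays and 2.14 to 5.16 with an array left out. Yap against confluent control gave 26.1 with 1 probe set per gene and 10.5 to 17.2 with an array left out, and Tead2-VP16 at high density 11.8 to 18.8 with an array left out. Yap against Tead2-VP16 gave 3.88 with the offset, 4.5 with the trend, 0.0244 with only those arrays and 0.191 to 1.6 with an array left out. Density in Tead2-VP16 gave 24.5, 9.52 with only those arrays and 8.26 to 16.3 with an array left out.

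Reversals of sign concerned values without a call. Centring gave 0.032 for Foxo4 at complete confluency, -0.039 for Foxo4 in Yap cells against low-density control (-0.017 with repeated quantile normalization) and -0.0087 for Pik3ip1 in Yap against Tead2-VP16 cells. Repeated quantile normalization gave -0.035 for Sesn1 at complete confluency. Averaged probe sets gave 0.047 for Foxo1, -0.033 for Pik3ip1 and 0.089 for Sesn3 in Yap against Tead2-VP16 cells, and -0.027 for Foxo4 with density in Tead2-VP16 cells. With an array left out, Foxo4 ran from -0.063 to 0.014 and Irs2 from -0.38 to 0.012 for Tead2-EnR, Foxo4 from -0.15 to 0.13 and Sesn1 from -0.046 to 0.069 for Tead2-VP16 at complete confluency, Irs2 from -0.36 to 0.019 for Tead2-VP16 at high density against confluent control, Foxo4 from -0.038 to 0.039 for Yap against low-density control, and Irs2 from -0.1 to 0.28 for Yap against Tead2-VP16. With 2 arrays per group, the intervals of the fit limit how small a difference can be detected.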
